A study of Mus musculus with 28 samples.

Results

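Dazl, Ddx4, Mael, Tdrd1, Sycp1, Sycp3, Hormad1, Stra8, Slc25a31 and Brdt are genes of the germ line, and their chromatin was read from ChIP-seq peak lists of WT and Spen KO mouse embryonic stem cells (mESCs). The 10 genes were chosen by name, and were found among the 22367 protein-coding genes of the GENCODE vM1 annotation of mm9. For each gene, the promoter was taken as 1000 bp on each side of the gene start, and the window as the gene body with 5000 bp on each side. Peak lists were available for H3K9me3, a mark of heterochromatin, for H3K4me3, a mark of promoters, for H3K27Ac, a mark of active promoters and enhancers, and for Oct4, a pluripotency transcription factor.

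Both genotypes were HATX cells, a haploid mESC line of mixed genomic background in which doxycycline switches on an Xist transgene on the X chromosome, grown in serum and LIF on gelatin. The Spen KO cells lacked most of Spen, which encodes an RNA-binding repressor that acts with Xist, and came from 1 clone, clone 2. WT and Spen KO cells each gave 2 ChIP libraries for each of 4 antibodies, which the study's methods describe as technical replicates, and the labels name no doxycycline treatment for them. A genotype difference therefore cannot be told apart from a difference between that clone and its parental line.

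Genes of the germ line are switched off in most other cells. Many of them have CpG-rich promoters that are held silent by DNA methylation and, in pluripotent cells, by a variant Polycomb complex, PRC1.6, whose subunits Max and Mga bind the E-box CACGTG and whose subunit E2F6 binds an E2F site. The histone methyltransferases that deposit H3K9me2 and H3K9me3 have also been tied to their repression. Their products work in the germ line itself: Ddx4, Mael and Tdrd1 in the piRNA pathway that represses transposons, Sycp1, Sycp3 and Hormad1 on meiotic chromosomes, and Dazl and Stra8 in germ cell development.

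The name of the set was checked against the lists. RNA was not measured in these files, so silencing itself was not observed. None of the 10 genes had an H3K27Ac peak at the promoter in either genotype, whereas 7 had an H3K4me3 peak in both, so 7 promoters carried the mark of promoters but not that of activity. Over all genes, H3K27Ac was at 18.2% of promoters in WT and 19.7% in Spen KO. H3K4me3 without H3K27Ac was common, at 45.2% of all promoters in WT and 42.1% in Spen KO. The mESC identity of the cells was seen in Pou5f1, Nanog, Sox2, Klf4, Zfp42, Tdgf1, Dppa4, Utf1 and Fgf4, which had both H3K4me3 and H3K27Ac at the promoter in both genotypes (9 of 10 markers, all but Esrrb). No H3K27Ac promoter peak was found at 6 fibroblast or feeder markers or at 4 markers of gonadal somatic cells in either genotype, although an H3K27Ac peak lay in the window of Col1a1 in both genotypes and of Amh in WT. H3K4me3 without H3K27Ac at the promoter, the state of the 7 germline genes, was also found in WT at 3 of the 6 fibroblast or feeder markers (Col1a1, Col1a2 and Thy1) and at 2 of the 4 gonadal markers (Amh and Insl3).

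The sequences before the gene starts were read first, since most of the 10 genes shared an E-box. The 250 bases upstream of the annotated start held CACGTG in 8 of the 10 genes, all but Dazl and Stra8, against 6.52% of 22355 protein-coding genes with a full sequence. Among genes with H3K4me3 at the promoter in WT, the share was 8.31%. In a wider list of 55 other germline genes it was 20%. The E-box reads the same on both strands. The E2F core, searched as GCGGGA or TCCCGC, stood in the same 250 bases of Ddx4, Mael, Sycp3 and Hormad1, which are 4 of 10 genes. It stood there in 20.4% of all genes, 30.4% of genes with H3K4me3 at the promoter in WT and 25.5% of the wider list. Neither motif overlapped the other. A match is a run of letters and not a measured binding site.

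The 250 upstream bases of 6 genes are printed 5′ to 3′ on the strand of the gene, with its mm9 position, and with the E-box and E2F cores in capitals. Sycp3 and Hormad1 are shown because they held 2 E-boxes each, Ddx4 because it had an H3K4me3 peak with lower scores in Spen KO, Mael because it was the gene with H3K9me3 at its promoter in Spen KO, Slc25a31 because it held an E-box but no peak of any mark in its window, and Dazl because it had neither motif before its first start.
Sycp3, chr10:87922064-87922313 (+ strand): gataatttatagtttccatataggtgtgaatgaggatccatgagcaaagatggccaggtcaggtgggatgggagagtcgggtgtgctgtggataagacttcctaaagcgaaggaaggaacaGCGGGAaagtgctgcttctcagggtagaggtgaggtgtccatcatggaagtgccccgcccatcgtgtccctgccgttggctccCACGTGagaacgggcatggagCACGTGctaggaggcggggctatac
Hormad1, chr3:95363349-95363598 (+ strand): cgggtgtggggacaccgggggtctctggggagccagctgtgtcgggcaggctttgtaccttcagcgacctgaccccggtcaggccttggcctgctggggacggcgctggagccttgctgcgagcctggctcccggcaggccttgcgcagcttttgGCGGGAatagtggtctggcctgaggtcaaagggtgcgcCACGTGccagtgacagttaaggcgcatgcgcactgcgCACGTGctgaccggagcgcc
Ddx4, chr13:113442519-113442768 (- strand): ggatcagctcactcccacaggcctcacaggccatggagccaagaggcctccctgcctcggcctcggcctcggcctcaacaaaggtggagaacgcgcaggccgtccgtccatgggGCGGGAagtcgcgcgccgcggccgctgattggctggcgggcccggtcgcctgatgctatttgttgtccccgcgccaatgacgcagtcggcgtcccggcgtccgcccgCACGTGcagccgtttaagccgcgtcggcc
Mael, chr1:168168876-168169125 (- strand): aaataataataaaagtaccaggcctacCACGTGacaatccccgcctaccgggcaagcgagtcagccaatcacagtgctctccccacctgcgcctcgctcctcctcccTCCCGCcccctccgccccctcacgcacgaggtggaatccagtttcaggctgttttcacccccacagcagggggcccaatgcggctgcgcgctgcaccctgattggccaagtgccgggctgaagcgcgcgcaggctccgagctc
Slc25a31, chr3:40512527-40512776 (+ strand): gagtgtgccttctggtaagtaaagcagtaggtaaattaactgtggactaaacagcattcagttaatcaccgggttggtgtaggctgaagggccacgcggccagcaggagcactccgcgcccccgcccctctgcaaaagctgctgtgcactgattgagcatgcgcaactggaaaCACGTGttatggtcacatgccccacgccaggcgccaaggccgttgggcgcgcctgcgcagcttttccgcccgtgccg
Dazl, chr17:50432925-50433174 (- strand): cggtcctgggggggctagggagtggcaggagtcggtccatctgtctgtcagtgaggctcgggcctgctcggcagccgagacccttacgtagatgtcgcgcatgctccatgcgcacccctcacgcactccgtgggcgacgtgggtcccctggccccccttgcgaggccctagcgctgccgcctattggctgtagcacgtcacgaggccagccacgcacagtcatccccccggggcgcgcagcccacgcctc

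The E-boxes lay close to the start in most of these genes. The first base of the motif was 11 bp upstream of the start in Tdrd1, 29 bp in Ddx4, 43 bp in Brdt, 77 bp in Slc25a31 and 94 bp in Sycp1. Sycp3 held E-boxes 46 and 25 bp upstream, and Hormad1 57 and 20 bp upstream. Mael was the exception, with its E-box 223 bp upstream. Dazl, whose first annotated start had no E-box in the 250 bases before it, had CACGTG in the 250 bases before its other annotated start, 707 bp downstream. Stra8 had none before any of its 3 annotated starts.

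CpG content separated Stra8 from the others. The ratio of observed to expected CpG over 500 bp on each side of the start was 0.256 at Stra8 and between 0.534, at Brdt, and 0.753, at Slc25a31, in the other 9. The median of the 10 genes was 0.692, against 0.549 in all genes, 0.721 in genes with H3K4me3 at the promoter in WT and 0.18 in genes without it. Dazl (0.738) and Slc25a31 had high ratios and no H3K4me3 peak. At Stra8, the starts 797 and 851 bp downstream had ratios of 0.474 and 0.534.

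**Figure D1:**
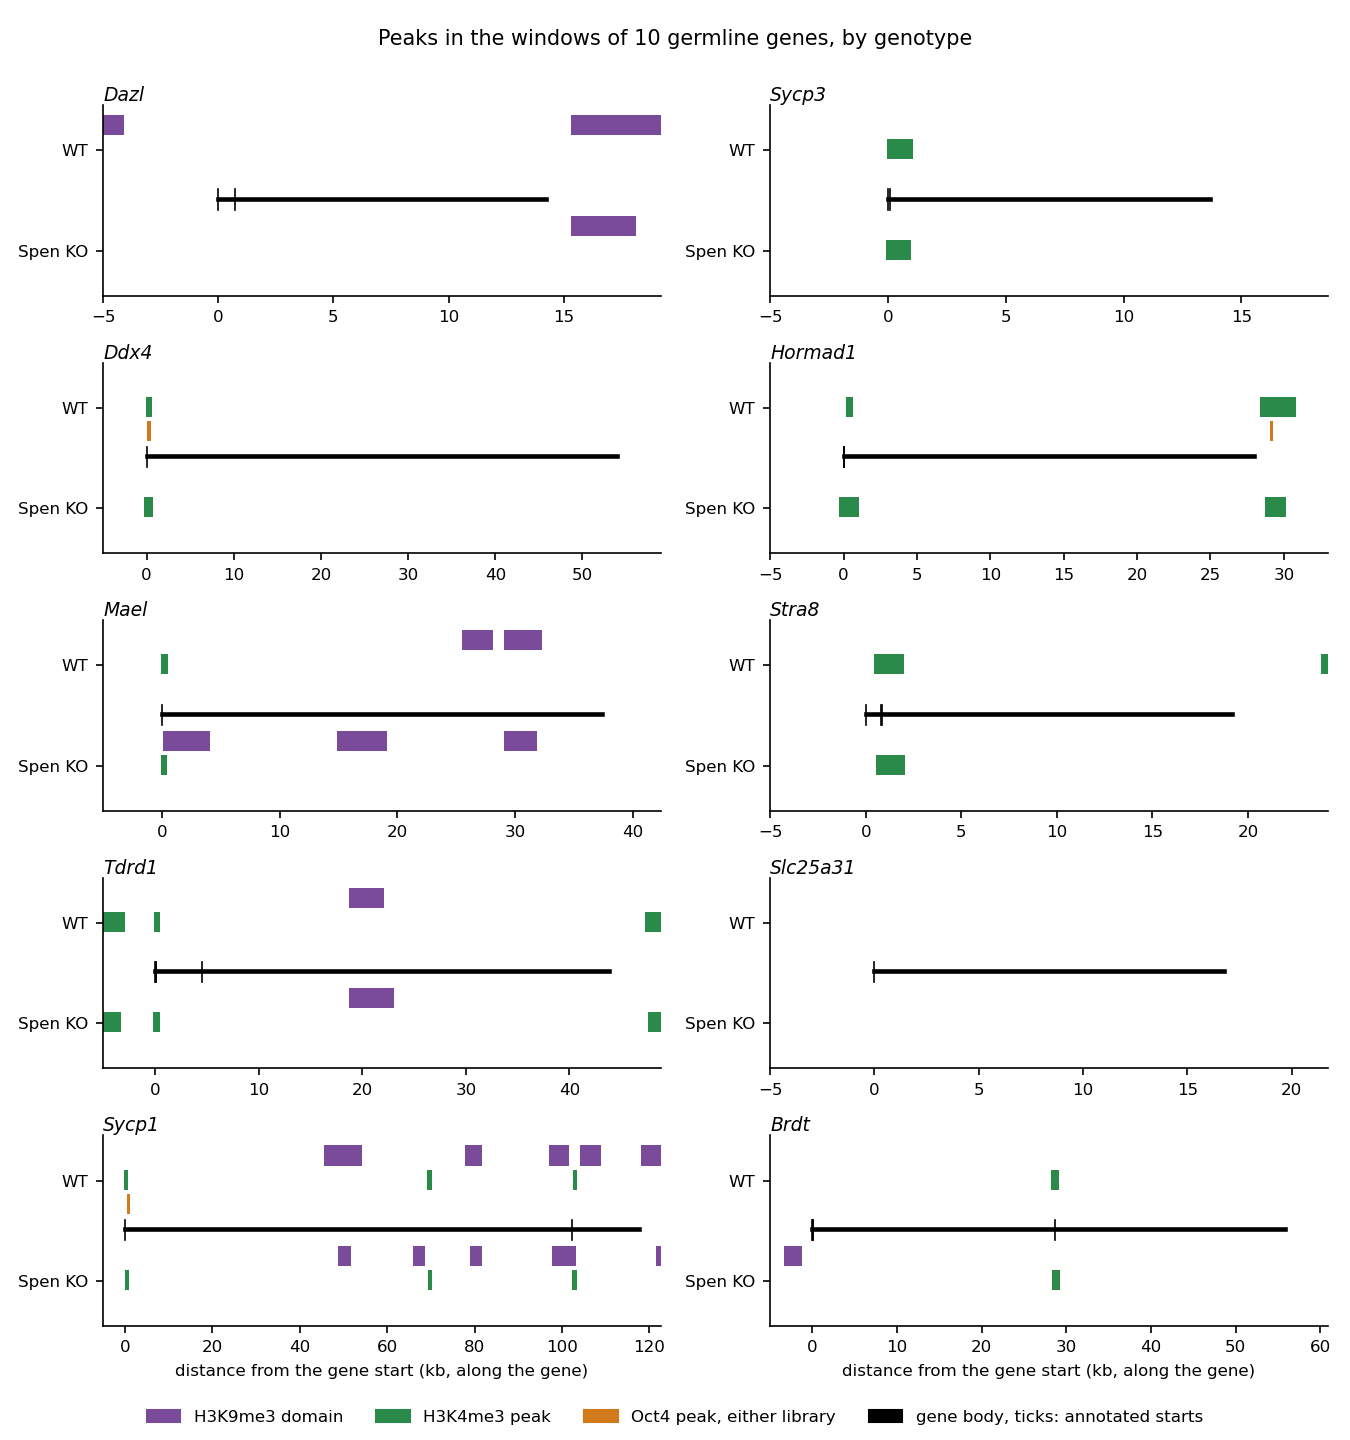
Peaks in the window of each of the 10 genes, with WT above the gene and Spen KO below it. The x axis is the distance from the gene start in kb, in the direction of transcription, bars are deposited peaks cut at the window edge and very short peaks are drawn at a minimum width. No H3K27Ac peak is drawn because none lay in these windows, and an H3K4me3 peak lay within 1000 bp of the start of 7 genes in both genotypes.

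Whether the promoters lost H3K9me3 in Spen KO could not be asked of any of these genes, because no promoter of the 10 overlapped an H3K9me3 domain in the WT list. Over all genes, 8.07% of promoters did. In Spen KO the promoter of Mael overlapped a domain and the other 9 did not, against 7.94% of all genes. By the same rule, 0 of the 10 genes had promoter H3K9me3 in WT alone, against 1.97% of all genes, and 1 of 10 had it in Spen KO alone, against 1.85%. With 1 deposited list for each genotype, no replicate test of these counts was possible.

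Mael, a component of germ granules needed for transposon repression, lies on the minus strand at chr1:168131516-168168875. Its promoter domain in Spen KO spanned chr1:168164801-168168800, from 75 bp to 4.1 kb inside the gene, with a score of 139 that stood at the percentile 31.7 of its list. The nearest WT domain lay 25.5 kb from the start. An H3K4me3 peak covered the Mael start in both genotypes, so in Spen KO both marks were listed within the first 406 bp of the gene. The domain was of low rank, and it was absent when the stronger 50% of each list was used. It also did not count when at least 50% of the promoter had to be covered. That rule depends on position and not on rank, and the domain began 75 bp inside the gene. Both marks come from populations of cells, so whether they lie on the same nucleosomes is not shown.

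Within the body of Mael, the domains were in different places in the genotypes. The WT list held domains at 25.5 to 28.1 kb and 29.1 to 32.3 kb from the start. The Spen KO list held the domain at the start, another from 14875 to 19074 bp, and a last at 29.1 to 31.9 kb, which overlapped the WT domain there. H3K9me3 covered 12.2% of the Mael window in WT and 23.2% in Spen KO.

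Over the windows, H3K9me3 was found at 4 of the 10 genes in WT, which were Dazl, Mael, Sycp1 and Tdrd1, against 38.4% of all genes. In Spen KO it was found at the same 4 and at Brdt, against 38.3% of all genes. The 10 windows held 10 domains in WT, of which 3 had no overlapping domain in Spen KO, and 11 domains in Spen KO, of which 4 had none in WT. Among all domains in gene windows, 13.9% of those in WT and 24.8% of those in Spen KO were absent from the other list. The whole Spen KO list held more and shorter domains (70268, median width 3800 bp) than the WT list (53745, median width 5400 bp).

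The 3 WT domains without a Spen KO counterpart lay at Dazl, Mael and Sycp1. Dazl, a translational regulator of germ cells, lies on the minus strand at chr17:50418719-50432924 and had a WT domain of 8200 bp upstream of it, at chr17:50437001-50445200. Its near edge was 4.1 kb from the Dazl start and its score of 115 stood at the percentile 31.4. A domain downstream of Dazl was in both lists, beginning 15.3 kb from the start, and was 5000 bp wide in WT and 2800 bp in Spen KO. The Dazl window thus went from 19.9% covered in WT to 11.6% in Spen KO, and neither genotype had H3K4me3, H3K27Ac or Oct4 there.

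Sycp1, the transverse filament of the synaptonemal complex, is the longest of the 10 genes, at chr3:102622422-102740023 on the minus strand, and held 5 domains in each genotype. All lay 45.6 kb or farther from the start. The WT domain at 104.2 to 108.8 kb had no counterpart in Spen KO, and the Spen KO domain at 65.8 to 68.6 kb, with the percentile 85.4 the highest ranked in these windows, had none in WT. At the other 4 places the domains overlapped, for example from 45.6 to 54.2 kb in WT and from 48.8 to 51.8 kb in Spen KO. Coverage was 20.5% of the window in WT and 11.7% in Spen KO.

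Tdrd1, a Tudor protein that binds Piwi proteins, lies at chr19:56900699-56944502 and had 1 domain in the gene body in both lists, 18.7 kb from its start, which ended at 22.1 kb in WT and 23.1 kb in Spen KO. Brdt, a bromodomain protein that binds acetylated histones in spermatids, lies at chr5:107760178-107816077 and had a domain in Spen KO alone, at chr5:107756801-107759000. It lay 1.2 to 3.4 kb upstream of the Brdt start, just outside the promoter as defined here, with a score of 100 at the percentile 13. It counted as a promoter domain when the promoter was widened to 2500 bp on each side. Ddx4, Sycp3, Hormad1, Stra8 and Slc25a31 had no H3K9me3 in the window in either genotype.

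**Figure D2:**
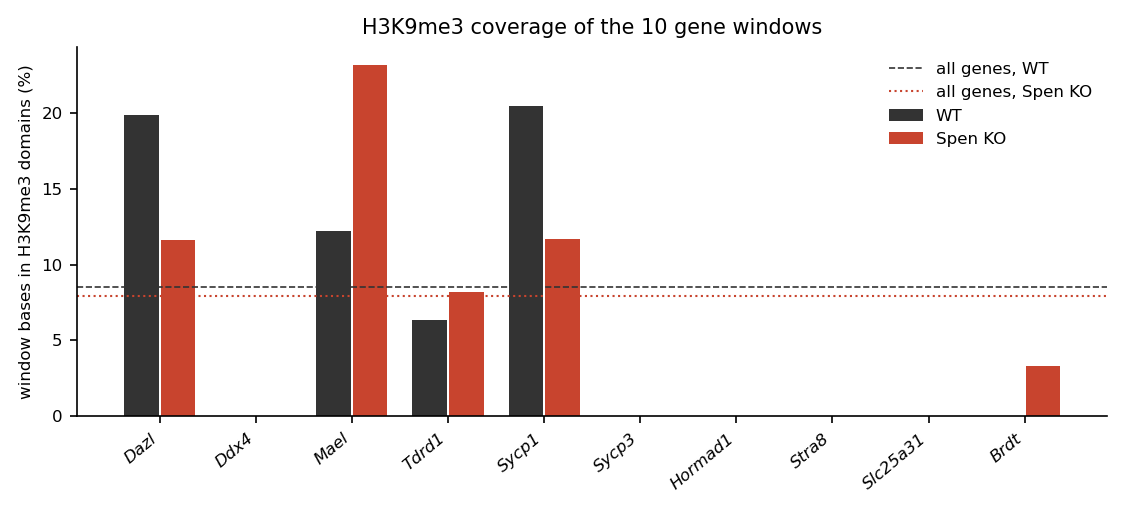
Percent of the bases of each gene window, gene body plus 5000 bp on each side, that lay in H3K9me3 domains in WT and Spen KO. Dashed and dotted lines give the same percent over all gene windows (8.52% in WT, 7.93% in Spen KO). Mael, Tdrd1 and Brdt were higher in Spen KO, Dazl and Sycp1 lower, and 5 genes had none.

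Pooled over the 10 windows, 40.2 kb of 500.4 kb lay in H3K9me3 domains in WT (8.03%) and 35.4 kb in Spen KO (7.07%), a difference of -0.96 percentage points. Over all gene windows the difference was -0.586 points. The pooled value rested on Sycp1, where coverage went from 26179 bp in WT to 14979 bp in Spen KO, and without Sycp1 it was 1.71 points. Of the genes, 3 were higher in Spen KO, 2 were lower and 5 had none, and the median over genes of the difference was 0. The distance from a gene start to the nearest domain had a median of 42.6 kb in WT and 44.4 kb in Spen KO, against 24 and 23.7 kb over all genes.

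H3K4me3 was at the promoter of Ddx4, Mael, Tdrd1, Sycp1, Sycp3, Hormad1 and Stra8 in WT, which are 7 of 10 genes, against 63.1% of all genes. The same 7 genes had it in Spen KO, against 61.5% of all genes. No gene had it in WT alone, against 2.15% of all genes, and none gained it in Spen KO alone, against 0.559%. These counts depended on the rule. With 500 bp on each side, Stra8 had it in WT alone. With the stronger 50% of each list, Ddx4 and Sycp3 had it in WT alone and Stra8 in Spen KO alone. Dazl and Slc25a31 had no H3K4me3 peak anywhere in the window in either genotype, and the Brdt promoter had none. Slc25a31, the germ cell carrier of ADP and ATP across the inner mitochondrial membrane, lies at chr3:40512777-40529515, and its window was the only window of the 10 without a peak of any antibody in any list.

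These peaks were narrow and low in rank. The WT peaks at the 7 promoters were 490 to 1597 bp wide, with a median of 683 bp, and the Spen KO peaks 472 to 1494 bp, with a median of 1006 bp. Over the 13640 promoters with H3K4me3 in both genotypes the median widths were 2747 and 2093 bp. Taken gene by gene, the median ratio of widths, Spen KO to WT, was 0.961 in the 7 genes and 0.812 over those promoters. Ranked by the mean of its 2 deposited library scores within its list, the median percentile of the 7 genes was 41 in WT and 28 in Spen KO, against 79.6 and 76.9 over those promoters. Taken gene by gene, the median difference in percentile, Spen KO minus WT, was -3.45 in the 7 genes and -2.84 over those promoters. None of the 7 reached the median of all promoters, the highest being Sycp1 at 66.8 in WT and Stra8 at 71.8 in Spen KO.

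The 2 library scores were then compared gene by gene. Ddx4, a DEAD-box helicase of germ granules at chr13:113388541-113442518, had scores of 23.9 and 30.3 in WT, against 21 and 10.1 in Spen KO. Sycp3, a lateral element protein of the synaptonemal complex at chr10:87922314-87935981, had scores of 29.2 and 22.4 in WT, against 18.6 and 10.9 in Spen KO. In both genes, both Spen KO libraries were below both WT libraries, in score and in percentile. The percentiles of Ddx4 were 50.9 and 63 in WT, against 38.9 and 10.3 in Spen KO, and those of Sycp3 were 61.2 and 48 in WT, against 31.2 and 14.6 in Spen KO.

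The other 5 genes overlapped between the genotypes in percentile. Mael scored 14.6 and 15.1 in WT, against 18.6 and 10.9 in Spen KO. Tdrd1 scored 18.1 and 15.1 in WT, against 13.9 and 15.9 in Spen KO. The values of Mael lay inside the range of the Spen KO libraries, and those of Tdrd1 crossed. Sycp1, the highest of the 7 in WT, scored 30 and 37.3 in WT, against 31.6 and 30.9 in Spen KO. Hormad1, a protein of the meiotic chromosome axis at chr3:95363599-95391593, scored 11.4 and 16.2 in WT, against 21 and 11.6 in Spen KO. Stra8, a retinoic acid-induced gene needed to enter meiosis, at chr6:34870163-34889342, scored 23.4 and 15.7 in WT, against 24.3 and 40.1 in Spen KO. Its Spen KO scores were both above its WT scores, but the percentiles, which allow for the different lists, overlapped.

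By percentile, both Spen KO libraries were thus below both WT libraries at 2 of 7 promoters, against 27% of all promoters with H3K4me3 in both genotypes, and above them at 0 of 7, against 14.0%. The smallest two-sided p that an exact permutation test could give with 2 libraries against 2 is 0.333, so no score difference at a single gene could pass a threshold. The deposited lists do not say which library each score belongs to or which caller output it is, and among the peaks at these 7 promoters the 2 scores of a peak differed by up to 15.8 within a genotype, at Stra8 in Spen KO.

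**Figure D3:**
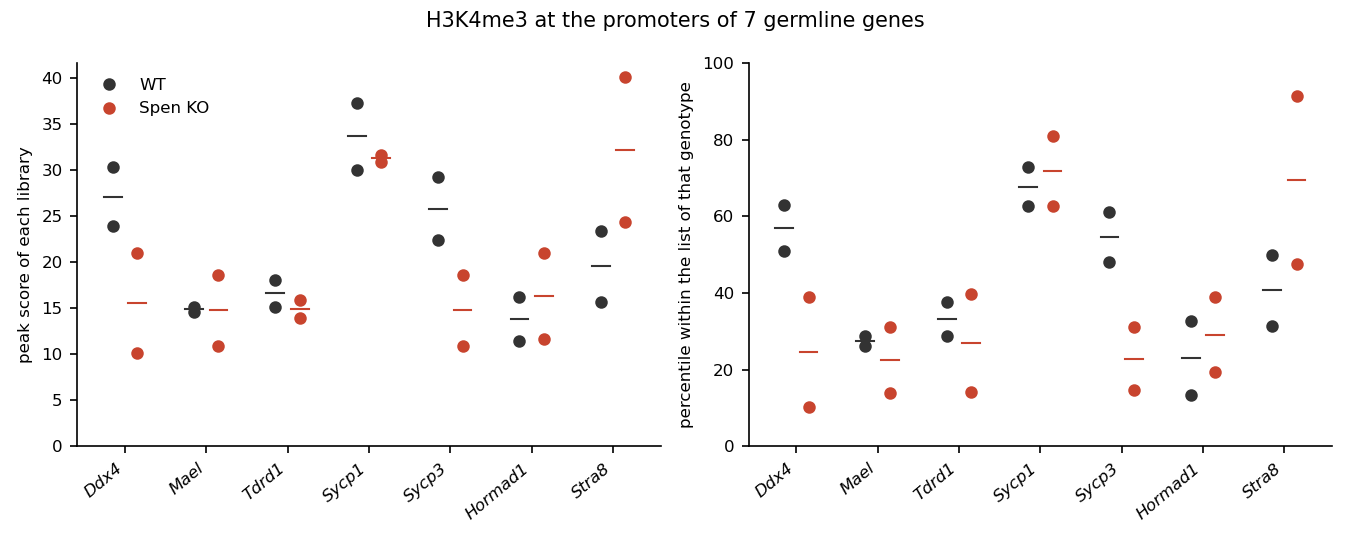
H3K4me3 at the 7 promoters with a peak in both genotypes, with the deposited peak score of each library on the left and its percentile within the list of that genotype on the right. Each point is 1 library score and the line is the mean of both. The points of WT and Spen KO do not overlap at Ddx4 and Sycp3, and in the right panel overlap at the other 5 genes.

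The shape of the H3K4me3 peak also differed at some starts. At Hormad1 the peak ran from 141 to 630 bp relative to the start in WT and from -330 to 1060 bp in Spen KO, 490 against 1391 bp wide. At Ddx4 it was 683 bp wide in WT and 1006 bp in Spen KO. The Spen KO peak was the wider in 3 of the 7 genes (Ddx4, Hormad1 and Tdrd1), against 11.8% of all promoters with the mark in both genotypes. Peak edges have no replicate in the combined lists, and no test was made.

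At Stra8 and Brdt, H3K4me3 peaks lay over annotated starts downstream of the gene start, and Sycp1 had peaks beyond the peak at its gene start. The Stra8 peak began 431 bp after the gene start in WT and 560 bp after it in Spen KO, and covered the starts 797 and 851 bp downstream, which are the CpG-richer ones. Brdt had no peak at its starts at 0, 16 and 33 bp, and a peak in both genotypes at its start 28678 bp downstream. The scores of that Brdt peak were 16.4 and 13.4 in WT, against 22.3 and 8.96 in Spen KO. Sycp1 had further H3K4me3 peaks in both genotypes beside its start 102306 bp downstream and, away from any annotated start, at 69.1 to 70.3 kb in WT.

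That last Sycp1 peak was also in the Spen KO list, at 69.4 to 70.2 kb, where its percentile was 7.93, against 60.3 in WT. Its near edge was 0.763 kb from the end of the H3K9me3 domain found there in Spen KO alone. At the start 102306 bp downstream, an H3K9me3 domain lay within 1000 bp in both genotypes, so Sycp1 counted as having promoter H3K9me3 in both lists when any annotated start was used. The WT domain ended at 101.6 kb, short of that start. The Spen KO domain ran from 97.6 to 103.2 kb, over that start and into the Spen KO H3K4me3 peak at 102.4 to 103.4 kb. Other H3K4me3 peaks in the windows belonged to neighbours: A630007B06Rik and Vwa2 on the sides of Tdrd1, and Golph3l beyond the end of Hormad1. In all, the windows held 14 H3K4me3 peaks in WT and 13 in Spen KO. The Spen KO list lacked 1 of the WT peaks, beyond the end of Stra8, against 21.4% of such peaks in all gene windows, and 0 of the Spen KO peaks lacked a WT counterpart, against 9.05%.

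H3K27Ac was at 0 of the 10 promoters in WT, against 18.2% of all genes, and at 0 in Spen KO, against 19.7%. No promoter had it in WT alone, against 2.70% of all genes, or in Spen KO alone, against 4.17%. None of the 10 windows held an H3K27Ac peak in either genotype, against 28.3% of all gene windows in WT and 28.3% in Spen KO. The nearest H3K27Ac peak to a start was 63.5 kb away in WT, at Hormad1, and 54.5 kb in Spen KO, at Sycp3. The farthest was 1258 kb away in WT and 1259 kb in Spen KO, at Dazl.

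H3K4me3 without H3K27Ac was therefore the state of 7 of 10 promoters in both genotypes, against 45.2% of all genes in WT and 42.1% in Spen KO. Among promoters with H3K4me3, H3K27Ac was at 0 of 7 in these genes and at 28.5% of all genes in WT and 31.6% in Spen KO. Of the promoters whose H3K4me3 ranked no higher than the highest of the 7 genes, 13.6% had H3K27Ac in WT and 17% in Spen KO. By the overlap rule used here, none of the 10 promoters had an active mark in Spen KO alone, and a peak under the calling threshold would not be seen. For H3K4me3 this count depended on the rule: it was 2 (Ddx4 and Hormad1) when at least 50% of the promoter had to be covered, and 1 (Stra8) with the stronger 50% of each list.

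Oct4 was called in each library separately. A peak lay in the window of 1 gene in WT replicate 1, of 2 genes in WT replicate 2 and of no gene in either Spen KO library. The mean was 1.5 ± 0.707 genes in WT (SD, n = 2) and 0 ± 0 in Spen KO (SD, n = 2), and the difference of -1.5 genes had a p of 0.333 in a two-sided exact permutation test, which is the smallest this design allows. The libraries were technical replicates, so the SD and p describe the spread between libraries and not between clones. The difference depended on the rule. Over gene bodies alone, and with the stronger 50% of each list, the difference was -1 genes and rested on WT replicate 2 alone. The p of the same test was then above this smallest value. Over all genes, the share with an Oct4 peak in the window was 8.9% and 9.23% in the WT libraries and 6.58% and 7.27% in the Spen KO libraries. At promoters the share was 6.39% in WT replicate 1, which stood apart, 2.96% in WT replicate 2, and 2.58% and 2.43% in the Spen KO libraries. Without WT replicate 1, the difference for the 10 genes was -2. Over the 4 libraries together, 3 of 10 genes had a peak, against 19.9% of all genes.

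No Oct4 peak was found in more than 1 library. In WT replicate 2, a peak of 6.97-fold enrichment lay 62 to 182 bp after the Ddx4 start and a peak of 7.6-fold enrichment lay 363 to 542 bp after the Sycp1 start, both inside the H3K4me3 peak there. In WT replicate 1, a peak of 5.4-fold enrichment in the Hormad1 window lay at the start of Golph3l. WT replicate 2 had the longest list, with 4111 peaks, and WT replicate 1 the shortest, with 1806. Of the mESC markers, 9 of 10 had an Oct4 peak in the window in at least 1 library.

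The wider list of germline genes was read by the same rules, of which 55 of 56 were found in the annotation. At the promoter, H3K9me3 was on 4 of the 55 in WT (7.27%), against 8.07% of all genes, and on 4 in Spen KO, against 7.94%. It was on 1 gene in WT alone (1.82%, against 1.97% of all genes) and on 1 in Spen KO alone (1.82%, against 1.85%). Fkbp6, a chaperone of the piRNA pathway, Tnp1, a transition protein of spermatids, and the testis tubulin Tuba3a had it in both. Syce1, of the synaptonemal complex, had it in WT alone, and Mov10l1, the piRNA helicase, in Spen KO alone. Both of these domains were of low rank, with percentiles of 12.8 and 7.77, and a Spen KO domain overlapped that of Syce1 outside the promoter.

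H3K4me3 was at 34 of the 55 promoters in WT (61.8%, against 63.1% of all genes) and at 29 in Spen KO (52.7%, against 61.5%). It was in WT alone at 7 (12.7%, against 2.15% of all genes) and in Spen KO alone at 2 (3.64%, against 0.559%). The whole H3K4me3 list was shorter in Spen KO (31091 peaks) than in WT (34823 peaks). These shares of all genes were not matched for the rank of the peak. The 7 genes with it in WT alone were Asz1, Mov10l1 and Piwil2 of the piRNA pathway, Lhx8 and Nanos3, which regulate germ cell development, Spo11, which makes the breaks of meiotic recombination, and Rpl10l, a ribosomal protein of the testis. The WT peaks of Asz1, Mov10l1, Piwil2, Nanos3 and Spo11 stood between the percentiles 4.66 and 18.9, that of Rpl10l at 37.4 and that of Lhx8 at 80.4. The Lhx8 peak began 67 bp before the start and was 3235 bp wide in WT, and a Spen KO peak overlapped it outside the promoter. Fkbp6 and Tuba3a had H3K4me3 in Spen KO alone, at the percentiles 19.7 and 8.54. At the promoter of Mov10l1, H3K4me3 was thus in the WT list alone and H3K9me3 in the Spen KO list alone. Both were of low rank, at the percentiles 17.5 and 7.77. The Mov10l1 window held H3K9me3 in both genotypes, and the nearest WT domain was 4.4 kb from the Spen KO domain at the promoter.

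H3K4me3 was then counted in the 4 groups of the wider list. Of 19 genes of meiotic chromosomes and recombination, 16 had it in WT and 15 in Spen KO. Of 14 genes of the piRNA pathway and germ granule, 8 had it in WT and 6 in Spen KO, and of 12 regulators of germ cells, 8 and 6. Of 10 genes of spermatids and sperm, 2 had it in each genotype. H3K27Ac was at 3 of the 55 promoters in each genotype (5.45%, against 18.2% of all genes in WT and 19.7% in Spen KO), and at 1 in each genotype alone (1.82%, against 2.70% in WT alone and 4.17% in Spen KO alone). Dmc1 and Tex14 had it in both, Syce2 in WT alone and Tex19.1 in Spen KO alone. By the same groups, 6 of the 14 piRNA pathway genes held an E-box in the 250 upstream bases (Fkbp6, Mov10l1, Piwil1, Pld6, Rnf17 and Tdrd9), 3 of the 19 meiotic genes, 2 of the 12 regulators and 0 of the 10 spermatid genes.

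**Figure D4:**
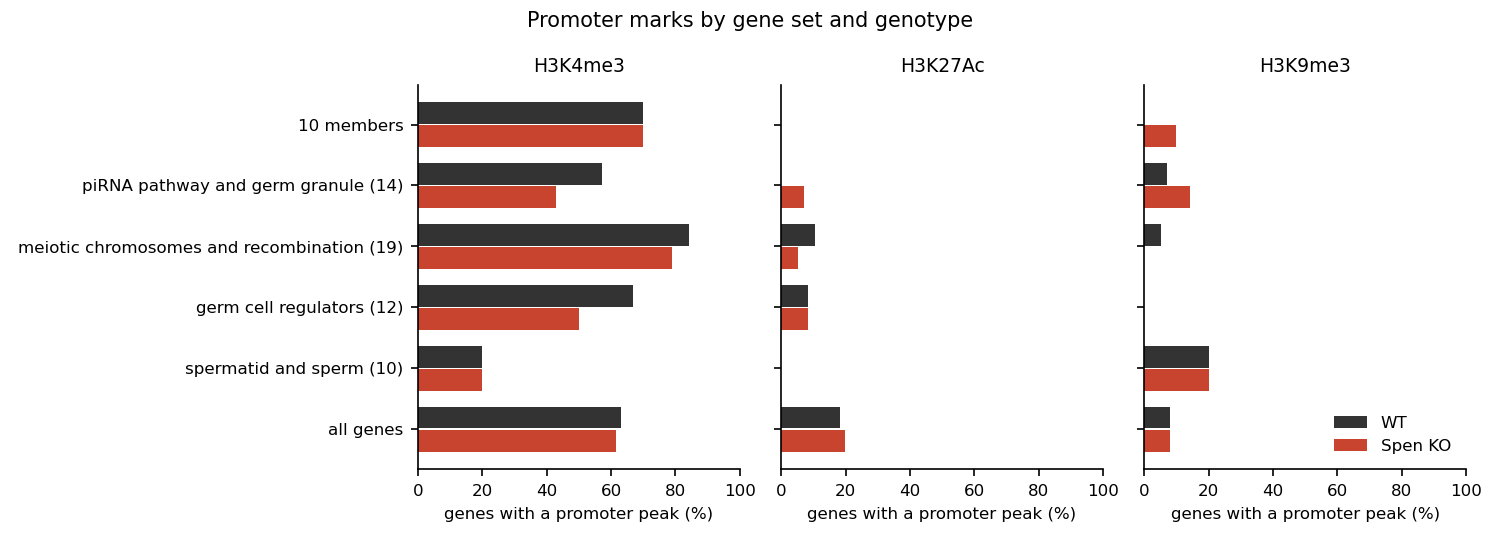
Percent of genes with a peak within 1000 bp of the gene start, for H3K4me3, H3K27Ac and H3K9me3, in WT and Spen KO, with 1 row for the 10 genes, 4 for the groups of the wider list (number of genes in brackets) and 1 for all 22367 genes. The 10 genes had no H3K27Ac bar, and their H3K4me3 share of 70% was the same in both genotypes.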

How the data were processed

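Per their methods, the authors aligned the read pairs with Bowtie2 (mm9), kept uniquely mapped pairs, discarded duplicates (Picard) and used MACS2 with a q-value cut-off of 0.01 against input. The paper says that such an analysis usually leaves out repetitive regions, which a separate re-analysis included. Domains over repeats may therefore be missing from the lists. For H3K4me3 and H3K27Ac, the deposited lists hold 1 list per genotype of peaks kept at an irreproducible discovery rate (IDR) under 0.05, with a score for each of the 2 libraries. For H3K9me3, the unit of the score deposited with each domain is not stated. Its scale would fit a log2 ChIP to input ratio multiplied by 100, but this is uncertain. The domains are joined windows of 200 bp with no IDR value, unlike the output of the MACS2 and IDR steps that the methods give for histone marks. How these lists were made is also uncertain. For Oct4, the deposited lists give the fold enrichment, a ratio to input, for each library. The 28 samples (16 ChIP, 12 input) were grouped by the labels. Read counts were not analysed here, so depth is unknown and the read-count test of the authors was not repeated.

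A gene had a mark when at least 1 base of its promoter or window overlapped a peak, in Python 3.11.15 with pandas 2.3.3, and the overlap code was checked on simulated data. Peaks were ranked by score as percentiles within each list. Regions slightly below the calling threshold are not listed. Upstream sequences were read from the mm9 genome. All 10 genes are named, and of the wider list those whose promoter status differed between genotypes for H3K9me3, H3K4me3 or H3K27Ac, up to 16. Other genes of the wider list named for a mark in both genotypes or for an E-box were chosen after their values were seen. The members and lists were chosen with earlier results of these data known. Of 56 genes of the wider list, Tdrd5 was not matched.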

Additional observations from a re-analysis of the deposited data

How the results depend on the processing

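Of 87 alternatives over 14 results, 60 left the count within 1.5 times its reported value or the difference in its direction and within 1.5 times its size, and 1 turned a direction, an alternative chosen after seeing the data: the H3K9me3 coverage difference was 1.71 points without Sycp1. For the 10 genes, promoter H3K9me3 in Spen KO went from 1 gene to 2 (Mael and Brdt, both in Spen KO alone) with 2500 bp on each side, and to 0, in all and in Spen KO alone, with the stronger 50% of each list or with at least 50% of the promoter covered. With any annotated start it was at 1 gene in WT (Sycp1) and 2 in Spen KO (Mael and Sycp1). Promoter H3K4me3 fell from 7 genes to 1 in WT (Sycp3) and 3 in Spen KO (Ddx4, Hormad1 and Sycp3) when at least 50% of the promoter had to be covered, with 2 in Spen KO alone. With 500 bp on each side it was at 7 genes in WT and 6 in Spen KO, where Stra8 was missing. With the stronger 50% of each list it was at 3 genes in WT (Ddx4, Sycp1 and Sycp3) and 2 in Spen KO (Stra8 and Sycp1), with 1 in Spen KO alone. Promoter H3K27Ac in Spen KO alone was 0 under all 6 alternatives.

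In the wider list, promoter H3K9me3 in WT alone went from 1 gene to 0 with 500 bp, with 2500 bp or with 50% of the promoter covered. In Spen KO alone it went from 1 to 2 with 2500 bp (Mov10l1 and Zcwpw1), and to 0 with the stronger 50% of each list or lists of equal length. With the stronger 50%, it was at 1 gene in WT (Fkbp6) and 0 in Spen KO. The count in WT alone then stayed at 1, but the gene was Fkbp6 and no longer Syce1. The H3K9me3 coverage difference of -0.96 points was -2.2 with the stronger 50%, -2.28 with lists of equal length, -0.35 over gene bodies alone and 0 as a median over genes. The causes of these moves were not tested. Promoter H3K4me3 and H3K27Ac in the wider list were not counted under the alternatives.

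For Oct4, leaving out 1 library gave differences between -2 and -1 genes. The difference was -1 genes over gene bodies alone and with the stronger 50% of each list, where only WT replicate 2 had peaks. No source says that a replicate number marks a shared batch. With the replicate block, pairing libraries by number, the difference was -1.5 genes and the exact permutation p was 0.5, the smallest that 2 pairs allow. The H3K4me3 and H3K27Ac lists give 2 scores for each peak but hold only peaks kept in both libraries, and the H3K9me3 lists give 1 score, so presence in these lists could not be counted with a library left out or paired. Depth limits all counts, since a deeper library can lift a peak over the threshold.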
